A study of Mus musculus with 8 samples.

Results

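The genes described here are a module of 32 genes of sterol synthesis, fatty acid synthesis and sterol efflux, chosen by name and read through the probe sets that carry their gene symbol. The array held 63 probe sets with the single symbol of 30 of these genes, out of 45101 probe sets in all and 18193 genes named by a single symbol. The LXR receptor Nr1h2 and the thiolase Acat2 are not analysed here. The list called sterol synthesis genes below also holds the sterol carrier Stard4, the regulator Insig1 and the prenylation enzyme Ggps1. Where a gene had several probe sets, the one with the highest mean over the arrays stands for it. Of the 30 genes, 27 reached a log2 value of 5 on at least 2 arrays and were tested, with 41 of the 63 probe sets passing that filter. Mvk (mevalonate kinase, 3.94 to 4.18), Tm7sf2 (a sterol reductase, 2.23 to 4.24) and Nr1h3 (2.24 to 2.57) stayed below 5 on each of the 8 arrays and were not tested.

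Cells hold their sterol content with a pair of opposing transcription programs. When membrane cholesterol falls, SCAP carries the SREBP proteins out of the endoplasmic reticulum to be cleaved, and they switch on the mevalonate pathway, cholesterol synthesis and fatty acid synthesis; INSIG proteins hold SCAP back when sterols are plentiful. When oxysterols accumulate, the nuclear receptors LXRα and LXRβ switch on cholesterol export, through the ABC transporters and apolipoprotein E, and the ubiquitin ligase MYLIP, which removes the LDL receptor. In macrophages and dendritic cells the LXR program is well known in cells that take up dying cells and lipid.

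The cells were conventional dendritic cells from the spleens of untreated female C57BL/6 mice, sorted into CD8α+ and CD8α- populations. The mice were wild type or RAG2-/-, which lack mature T and B lymphocytes because antigen receptor genes are not rearranged; the deficiency affects the whole animal from birth. The labels give an age of 10 weeks for each array. The 4 groups, wild type CD8α-, wild type CD8α+, RAG2-/- CD8α- and RAG2-/- CD8α+, had 2 arrays each, and values are given below in the order replicate 1, replicate 2. Whether replicates were separate mice is not stated in the labels; the spread behind the p-values is that between these arrays and may be technical. Values are log2 expression levels as deposited, and changes are differences of log2 group means from limma, with a gene called at an adjusted p below 0.05.

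The sort could be seen in the arrays: Cd8a read 11.73 to 12.51 in CD8α+ and 5.80 to 7.70 in CD8α- cells, and Cd4 read 7.83 to 11.23 in CD8α- and 2.76 to 4.15 in CD8α+ cells. The dendritic cell genes Itgax, Flt3, Zbtb46, H2-Aa and H2-Ab1 were present on all arrays. Rag2 itself read 2.49 to 3.63, below 5 on each array, so it does not check the genotype. Replicates correlated at 0.969 to 0.987 across genes, which are not independent replicates. The 4 RAG2-/- arrays shared one lowest value, 2.23, held by 18217 to 18893 probe sets, whereas the lowest value of the wild type arrays, 1.16 to 1.17, was held by 1 probe set on each. The arrays of the genotypes were thus evidently processed apart, and genotype and processing cannot be told apart in a comparison of genotypes. Identical values above 2.23 also recurred between RAG2-/- arrays: Mvk read 4.099 on all of them. Whether such shared values are floors of single probe sets was not tested. Neutrophil transcripts stood apart on 2 arrays, RAG2-/- CD8α- replicate 2 and RAG2-/- CD8α+ replicate 1, where the log2 of their summed level was 13.02 and 11.60 against 5.82 to 6.63 on the other 6. Counts of members called are given with and without these 2 arrays, and the calls that are gained or lost without them are named. Such fits, and those that leave out 1 array, rest on a lone array in a group. The share of all genes they call is not given here, so their counts are not read as a result about the members.

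**Figure D1:**
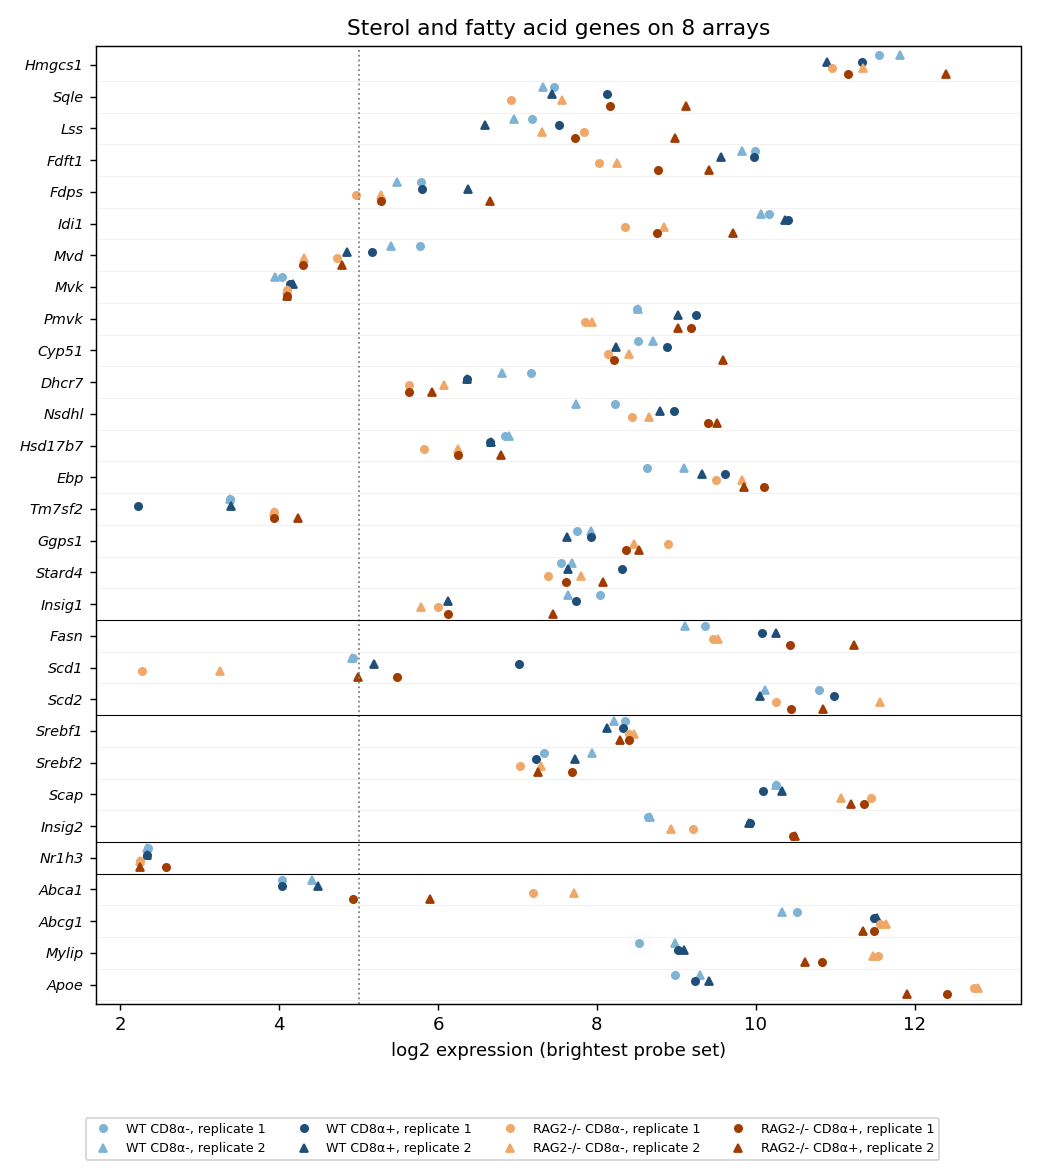
Log2 expression of the 30 measured genes (x axis) on each of the 8 arrays, with circles for replicate 1, triangles for replicate 2 and colours for the 4 groups; the dotted line marks the log2 level of 5 used as a floor and horizontal lines separate sterol synthesis, fatty acid synthesis, regulators, the receptor Nr1h3 and LXR targets. The RAG2-/- arrays lie to the right of the wild type arrays for Mylip, Apoe and Scap, and the CD8α+ arrays to the right of the CD8α- arrays of the same genotype for Insig2.

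The promoters of 6 members of the arms compared below are shown first, with 3 motifs of SREBP and its partners in capitals; no LXR element was searched for. RefSeq promoter entries (GRCm38.p6) were found for 25 of the 32 genes, and the 250 bases before each start were searched on both strands for 3 motifs: TCACNCCAC, a form of the sterol regulatory element bound by SREBP; CCAAT, bound by NF-Y; and GGGCGG, bound by Sp1. NF-Y and Sp1 are known partners of SREBP at its targets. CCAAT was found in 14 of 15 sterol synthesis genes with an entry, while 37.5% of all 27025 genes hold it. It was found in 1 of 3 LXR targets, Mylip. GGGCGG was found in 13 of the 15, against 35.4% of all genes. TCACNCCAC was found in the window of 1 member, Hmgcs1, against 1.23% of all genes; its first base lies 137 bases before the start. A match is a description of letters, not a binding site. The windows below are written 5′ to 3′ on the strand of the gene, with the letters of any of the 3 motifs, on either strand, in capitals (ATTGG and CCGCCC are the reverse strand of CCAAT and GGGCGG). Hmgcs1 (chr13:119690101-119690350, plus strand) holds all 3 motifs. Idi1 (chr13:8885356-8885605, plus), Hsd17b7 (chr1:169969206-169969455, minus) and Insig1 (chr5:28071162-28071411, plus) were lower in RAG2-/- CD8α- cells. Mylip (chr13:45389492-45389741, plus) and Abca1 (chr4:53159896-53160145, minus) were higher there.
Hmgcs1: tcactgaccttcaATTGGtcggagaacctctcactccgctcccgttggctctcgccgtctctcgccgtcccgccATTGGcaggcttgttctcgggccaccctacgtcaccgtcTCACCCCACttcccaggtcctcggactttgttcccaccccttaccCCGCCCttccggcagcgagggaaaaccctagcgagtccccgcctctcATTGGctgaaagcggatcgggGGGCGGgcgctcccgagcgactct
Idi1: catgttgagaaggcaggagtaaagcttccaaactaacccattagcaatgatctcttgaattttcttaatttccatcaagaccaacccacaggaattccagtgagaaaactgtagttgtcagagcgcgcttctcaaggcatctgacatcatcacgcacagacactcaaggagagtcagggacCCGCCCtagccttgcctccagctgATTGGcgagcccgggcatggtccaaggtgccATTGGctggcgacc
Hsd17b7: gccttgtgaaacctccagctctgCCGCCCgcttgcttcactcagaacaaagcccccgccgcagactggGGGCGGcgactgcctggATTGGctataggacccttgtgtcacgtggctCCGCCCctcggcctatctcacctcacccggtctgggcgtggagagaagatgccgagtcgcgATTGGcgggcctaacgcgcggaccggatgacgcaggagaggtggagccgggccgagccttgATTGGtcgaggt
Insig1: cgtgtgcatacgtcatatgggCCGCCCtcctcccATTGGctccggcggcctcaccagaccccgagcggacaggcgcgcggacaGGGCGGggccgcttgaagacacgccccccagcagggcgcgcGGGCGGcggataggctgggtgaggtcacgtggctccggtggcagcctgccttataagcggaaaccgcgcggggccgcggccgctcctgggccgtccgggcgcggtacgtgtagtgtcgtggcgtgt
Mylip: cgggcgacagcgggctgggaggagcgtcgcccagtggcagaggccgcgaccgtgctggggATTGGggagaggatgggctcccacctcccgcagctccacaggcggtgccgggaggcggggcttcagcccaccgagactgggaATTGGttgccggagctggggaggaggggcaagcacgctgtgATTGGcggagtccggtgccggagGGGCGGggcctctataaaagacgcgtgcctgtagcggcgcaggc
Abca1: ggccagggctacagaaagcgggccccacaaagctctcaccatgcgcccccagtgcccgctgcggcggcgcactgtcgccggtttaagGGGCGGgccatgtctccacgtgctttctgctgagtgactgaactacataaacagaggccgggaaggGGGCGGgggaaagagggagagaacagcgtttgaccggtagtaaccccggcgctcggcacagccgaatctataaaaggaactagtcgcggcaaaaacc
In these windows CCAAT or its reverse appears 3 times each in Hmgcs1, Hsd17b7 and Mylip, 2 times in Idi1, 1 time in Insig1 and 0 times in Abca1.

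Between the genotypes, Apoe and Mylip were higher in both populations of RAG2-/- mice and part of the mevalonate pathway was lower in CD8α- cells. Abca1 was also called higher in both populations, but passed the filter only through RAG2-/- arrays. In CD8α- cells, the cholesterol exporters Abca1 and Abcg1, the lipoprotein Apoe and the ligase Mylip all rose. There, 7 of 16 tested genes of the sterol synthesis list fell, Insig1 among them, while 2 rose, Ebp and Ggps1. In all, 15 of 27 tested members were called in CD8α- cells, 7 higher and 8 lower, where 40.5% of all 8763 tested genes were called (23.4% higher, 17.1% lower). In CD8α+ cells 7 were called, 6 higher and 1 lower, where 36.9% of all genes were called (20.8% higher, 16.1% lower). The 55.6% of members called in CD8α- cells is above the share of all genes and the 25.9% in CD8α+ cells is below it. The CD8α- count includes Abca1 and Mvd, each past the filter through a single genotype, and Scd1, below 5 in both CD8α- groups. The CD8α+ count includes Abca1. These shares thus rest in part on the filter. Without the neutrophil-bearing arrays the counts were 10 and 7, of which 10 and 4 were among the calls above. In CD8α- cells Ebp, Pmvk, Insig1, Mvd and Scd1 were then no longer called (limma adjusted p = 0.059 to 0.148). In CD8α+ cells Idi1, Ggps1 and Insig2 were no longer called (adjusted p = 0.0515 to 0.0689), while Hmgcs1, Lss and Fasn became calls, higher by 1.28, 1.92 and 1.07 (adjusted p = 0.0364, 0.0405 and 0.0315). The changes of Apoe were 3.61 and 2.58, of Mylip 2.78 and 1.57, and of Scap 1.19 and 0.99 without these arrays, all still called.

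**Figure D2:**
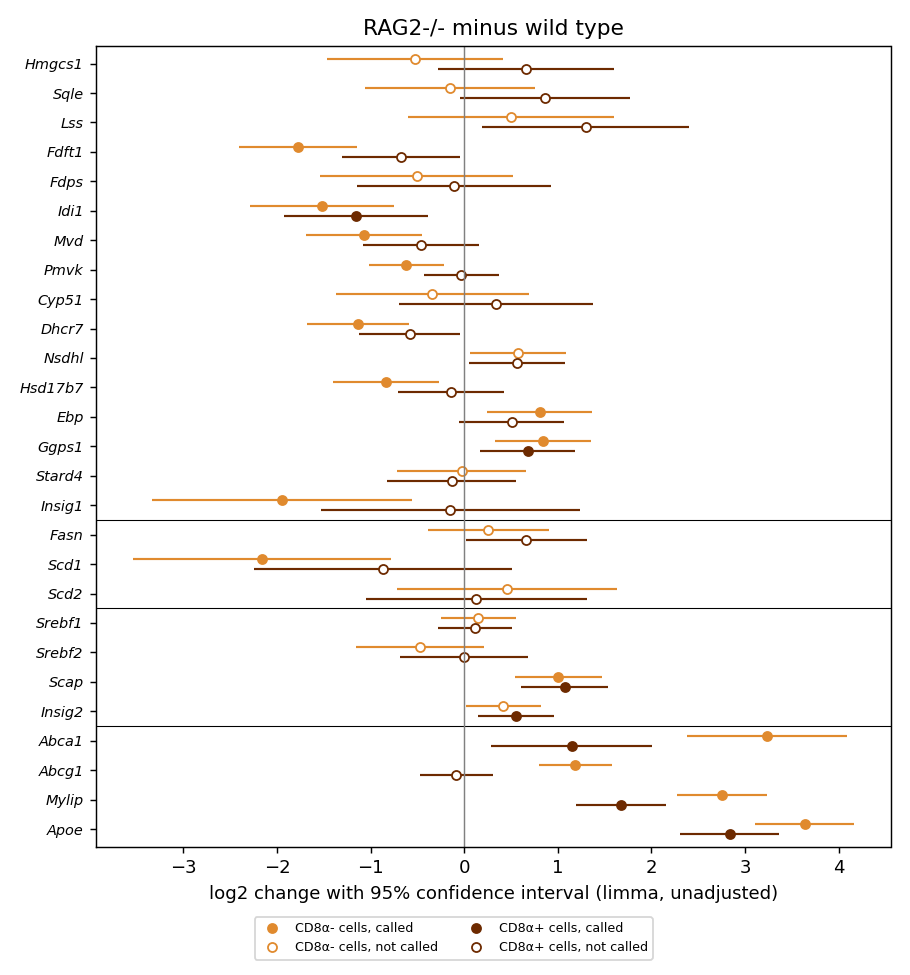
Log2 change of the 27 tested genes, RAG2-/- minus wild type (x axis), with unadjusted 95% confidence intervals from limma, in CD8α- (light) and CD8α+ cells (dark); filled points passed an adjusted p of 0.05. Apoe, at 3.63 and 2.83, and Mylip, at 2.75 and 1.67, lie to the right in both populations, and Fdft1, Idi1 and Dhcr7 lie to the left in CD8α- cells.

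The LXR target Apoe encodes apolipoprotein E, which accepts cholesterol for export. Its level was 8.98 and 9.30 in wild type CD8α-, 9.23 and 9.41 in wild type CD8α+, 12.75 and 12.80 in RAG2-/- CD8α- cells, and 12.41 and 11.90 in RAG2-/- CD8α+ cells. The RAG2-/- arrays all lay above the wild type arrays, with no overlap. The change was 12.4-fold in CD8α- cells (log2 3.63, SE 0.23, limma adjusted p = 0.000282) and 7.13-fold in CD8α+ cells (log2 2.83, SE 0.23, adjusted p = 0.000665).

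Mylip, also called IDOL, encodes the ligase that marks the LDL receptor for degradation. Its level was 8.53 and 8.98 in wild type CD8α-, 9.01 and 9.09 in wild type CD8α+, 11.54 and 11.48 in RAG2-/- CD8α- cells, and 10.83 and 10.62 in RAG2-/- CD8α+ cells. The genotypes did not overlap, and within RAG2-/- mice both CD8α- arrays lay above both CD8α+ arrays. The change was 6.73-fold in CD8α- cells (log2 2.75, SE 0.20, limma adjusted p = 0.000419) and 3.19-fold in CD8α+ cells (log2 1.67, SE 0.20, adjusted p = 0.00195).

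Abca1 encodes the transporter that loads cholesterol onto lipid-poor apolipoproteins. It was below the floor of 5 on all wild type arrays, at 4.03 and 4.41 for CD8α- and at 4.04 and 4.48 for CD8α+ cells. In RAG2-/- mice it read 7.20 and 7.71 in CD8α- cells and 4.93 and 5.89 in CD8α+ cells. Only those 3 arrays above 5 carried it past the filter, so a difference between groups was built into its being tested. Measured against a level of 5, it was at least 5.48-fold higher in RAG2-/- CD8α- cells (limma adjusted p = 0.00128) and at least 1.33-fold higher in RAG2-/- CD8α+ cells (adjusted p = 0.0447). The second call was lost when values below 5 were set to 5, and without RAG2-/- CD8α+ replicate 2 or either wild type CD8α+ array (changes of 0.67, 0.93 and 1.37, adjusted p = 0.193, 0.206 and 0.0838).

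Abcg1 encodes the transporter that passes cholesterol on to mature high-density lipoprotein. It read 10.51 and 10.33 in wild type CD8α- cells, and between 11.35 and 11.64 on the 6 other arrays: 11.49 and 11.52 in wild type CD8α+, 11.57 and 11.64 in RAG2-/- CD8α-, and 11.49 and 11.35 in RAG2-/- CD8α+ cells. Wild type CD8α- cells thus stood alone with the low level. The genotype difference was 1.18 (SE 0.17, limma adjusted p = 0.0025) in CD8α- cells and -0.09 (95% interval -0.48 to 0.31) in CD8α+ cells. Only its brightest probe set showed this. The other that passed the filter was called in none of the comparisons, and read the identical 5.006 on all RAG2-/- arrays.

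Markers of red pulp macrophages, which take up dying red cells, were mostly higher in RAG2-/- cells too. Of 10 markers, 10 were called higher in RAG2-/- CD8α- cells and 8 in RAG2-/- CD8α+ cells, beside 23.4% and 20.8% of all genes, and 7 and 6 without the neutrophil-bearing arrays. Their summed level (log2) was 12.45 to 12.87 in wild type CD8α-, 12.20 to 12.67 in wild type CD8α+, 14.54 to 14.58 in RAG2-/- CD8α- and 13.33 to 13.64 in RAG2-/- CD8α+ cells. The macrophage genes C1qa, C1qc, Cd5l and Axl were below 5 on all wild type arrays and passed the filter only through RAG2-/- arrays, so their direction was built into their being tested. The summed level of Abca1, Abcg1, Mylip and Apoe was 11.20 to 11.25, 11.97 to 12.04, 13.67 to 13.71 and 12.98 to 13.31 in the same order of groups. Both sums were thus highest in RAG2-/- CD8α- cells; the part of these markers in the LXR target result was not tested. In sorted bulk samples, more cells of a type and more RNA per cell cannot be told apart.

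**Figure D3:**
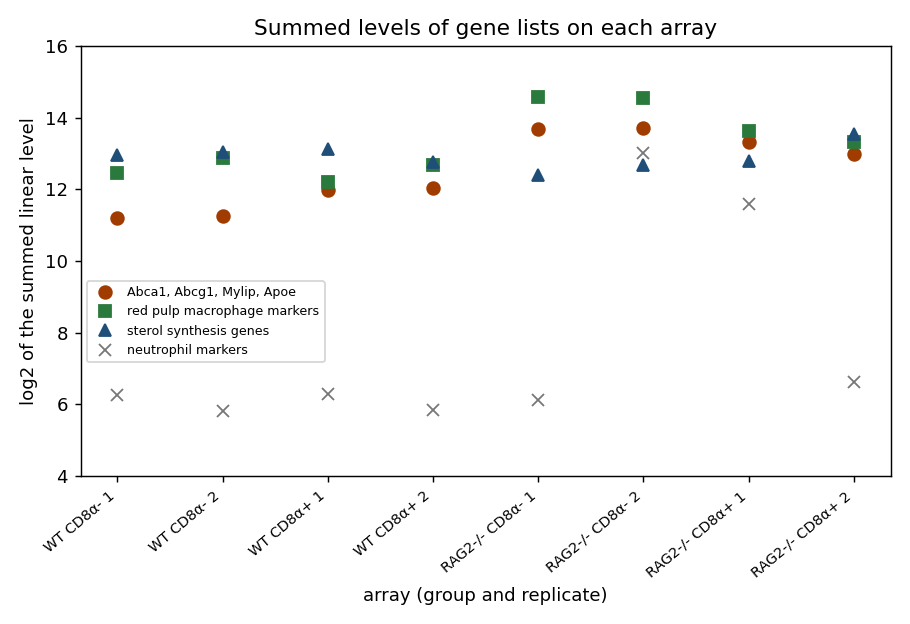
Log2 of the summed linear level (y axis) of the 4 LXR targets, the red pulp macrophage markers, the sterol synthesis genes and the neutrophil markers on each of the 8 arrays (x axis). The LXR targets and macrophage markers are both higher on the RAG2-/- arrays, and the neutrophil markers are high on RAG2-/- CD8α- replicate 2 and RAG2-/- CD8α+ replicate 1.

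In the sterol synthesis arm, the fall in RAG2-/- CD8α- cells was seen along the mevalonate pathway and at single late steps. The 16 tested genes had a median change of -0.52, where the median over all genes was 0.14, and 12 of the 16 lay below that all-gene median. Scaling matters for the sign of single genes. With each array centred on its median, the all-gene median moved to 0.81, and the arm median relative to all genes was -0.67 instead of -0.66. In that fit 1 gene was called lower and 3 higher. The array medians lay below the floor of 5, at 2.33 to 2.38 on RAG2-/- and 2.97 to 3.06 on wild type arrays. Centring on them thus shifted all genes of RAG2-/- arrays upward against wild type. In CD8α+ cells the arm median was -0.07 against 0.09 over all genes, with 1 gene higher and 1 lower. Its sign rested on single arrays: it was 0.43 without wild type CD8α+ replicate 1, 0.45 without RAG2-/- CD8α+ replicate 1 and -0.36 without RAG2-/- CD8α+ replicate 2.

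Fdft1, squalene synthase, commits the pathway to sterols. It read 9.99 and 9.83 in wild type CD8α- and 9.98 and 9.56 in wild type CD8α+ cells, and 8.02 and 8.25 in RAG2-/- CD8α- and 8.77 and 9.41 in RAG2-/- CD8α+ cells. It fell by 1.77 in RAG2-/- CD8α- cells (SE 0.27, limma adjusted p = 0.00319), and this call was kept under each of the 15 alternatives tried.

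Idi1, which isomerises isopentenyl diphosphate, read 10.17 and 10.06 in the CD8α- and 10.41 and 10.37 in the CD8α+ cells of wild type mice. In RAG2-/- mice it read 8.35 and 8.85 in CD8α- and 8.76 and 9.71 in CD8α+ cells, below all wild type arrays. The changes were -1.51 (SE 0.33, limma adjusted p = 0.0109) in CD8α- and -1.15 (SE 0.33, adjusted p = 0.0309) in CD8α+ cells. In each population the call was lost without RAG2-/- replicate 1 or either wild type array, with changes of -1.27 to -1.57 (adjusted p = 0.0526 to 0.0694) in CD8α- and -0.68 to -1.18 (0.104 to 0.125) in CD8α+ cells. By another probe set of Idi1 the changes were -1.74 in CD8α- and -0.57 in CD8α+ cells (limma adjusted p = 0.0284 and 0.379 over probe sets). That probe set read 10.51 and 9.68 in wild type and 8.88 and 10.16 in RAG2-/- CD8α+ cells, which overlapped. By its brightest probe set, no other sterol synthesis gene was called lower in CD8α+ cells.

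Pmvk and Mvd, which phosphorylate mevalonate phosphate and decarboxylate its product, were lower in RAG2-/- CD8α- cells. Pmvk read 8.50 and 8.52 in wild type and 7.85 and 7.94 in RAG2-/- CD8α- cells (change -0.62, SE 0.17, limma adjusted p = 0.0262), a difference that became 0.04 (adjusted p = 0.862) with median-centred arrays. Mvd read 5.77 and 5.41 in wild type and 4.73 and 4.31 in RAG2-/- CD8α- cells, at least 1.51-fold lower against a level of 5 (adjusted p = 0.0176). Mvd passed the filter only through 3 wild type arrays, so a lower level in RAG2-/- mice was built into its being tested. Leaving out any array of these groups ended the Pmvk call (adjusted p = 0.0571 to 0.099), and RAG2-/- replicate 2 or wild type replicate 1 the Mvd call (0.0801 and 0.109). In CD8α+ cells Mvd read 5.17 and 4.85 in wild type and 4.30 and 4.79 in RAG2-/- mice.

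Among the late steps, Dhcr7, the last reductase of cholesterol synthesis, read 7.17 and 6.80 in wild type and 5.63 and 6.07 in RAG2-/- CD8α- cells, a fall by 1.13 (SE 0.23, limma adjusted p = 0.00878). In CD8α+ cells it read 6.36 and 6.36 in wild type and 5.63 and 5.92 in RAG2-/- mice and was not called. Hsd17b7, a 3-ketosteroid reductase of the pathway, read 6.84 and 6.90 in wild type and 5.82 and 6.25 in RAG2-/- CD8α- cells (change -0.83, SE 0.24, adjusted p = 0.0297). It read 6.65 and 6.67 in wild type and 6.25 and 6.79 in RAG2-/- CD8α+ cells, which overlapped. Dhcr7 read the identical 5.6278 on replicate 1 of both RAG2-/- populations. Hsd17b7 read the identical 6.2458 on RAG2-/- CD8α- replicate 2 and RAG2-/- CD8α+ replicate 1. How far such shared values shaped these changes and their SEs was not tested. Without wild type replicate 1 the Dhcr7 change was -0.95 (adjusted p = 0.0625), and without RAG2-/- replicate 1 or either wild type array Hsd17b7 missed the threshold (adjusted p = 0.108 to 0.124).

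Insig1, both an SREBP target and the brake on SCAP, read 8.03 and 7.64 in wild type CD8α- cells and 6.00 and 5.78 in RAG2-/- CD8α- cells, a fall by 1.95 (SE 0.59, limma adjusted p = 0.0353). In CD8α+ cells it spread widely within both groups, reading 7.74 and 6.13 in the wild type and 6.12 and 7.45 in RAG2-/- mice. Its call in CD8α- cells was lost when any array of those groups was left out (adjusted p = 0.0904 to 0.169).

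Ebp, a sterol isomerase, and Ggps1, which makes the geranylgeranyl group for protein prenylation, went the other way. Ebp read 8.63 and 9.09 in wild type and 9.50 and 9.83 in RAG2-/- CD8α- cells (change 0.80, SE 0.24, limma adjusted p = 0.033). Ggps1 read 7.75 and 7.92 in wild type and 8.89 and 8.46 in RAG2-/- CD8α- cells (change 0.84, adjusted p = 0.0204), and 7.92 and 7.62 in wild type and 8.37 and 8.53 in RAG2-/- CD8α+ cells (change 0.68, adjusted p = 0.0461). The Ebp call was lost without RAG2-/- replicate 2 or wild type replicate 1 (adjusted p = 0.133 and 0.177). The Ggps1 calls were lost in CD8α- cells without RAG2-/- replicate 1 or either wild type array (0.0651 to 0.108) and in CD8α+ cells when any array was left out (0.0757 to 0.185). Another probe set of Ggps1 differed by -0.75 and -0.98 in the same comparisons, the latter with an adjusted p of 0.0284 over probe sets, so the direction for this gene depends on the probe set.

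Probe sets also disagreed for the pathway's entry enzyme. Hmgcs1, HMG-CoA synthase, read 11.55 and 11.81 in wild type and 10.96 and 11.35 in RAG2-/- CD8α- cells by its brightest probe set, a change of -0.52 (95% interval -1.47 to 0.42, limma adjusted p = 0.326). Its 3 other probe sets above the floor differed by -1.43, -1.62 and -2.77 there, with adjusted p-values over probe sets of 0.0291, 0.0285 and 0.00215. The other sterol synthesis genes that were not called between genotypes were Sqle, Lss, Fdps, Cyp51, Nsdhl and Stard4. Among them Lss, lanosterol synthase, had the widest difference, 1.30 in CD8α+ cells (95% interval 0.19 to 2.40, adjusted p = 0.066), reading 7.52 and 6.60 in wild type but 7.73 and 8.98 in RAG2-/- cells. Another probe set of the sterol carrier Stard4 was higher in RAG2-/- cells, by 2.27 and 1.64 (adjusted p = 0.00465 and 0.0145 over probe sets), while its brightest differed by -0.03 and -0.13.

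Cell cycle genes were lower as well. Of 8 tested, 5 were called lower in RAG2-/- CD8α- cells and 3 in RAG2-/- CD8α+ cells, beside 17.1% and 16.1% of all genes. Without the neutrophil-bearing arrays the counts were 5 and 5. Their summed level was 14.62 to 14.77 on the wild type arrays and 13.44 to 13.92 on the RAG2-/- arrays. B and plasma cell markers were lower too. In RAG2-/- mice 5 of 6 were called lower in CD8α- and 6 of 6 in CD8α+ cells, beside the same shares of all genes. The summed level of these markers was 13.35 to 13.92 on the wild type arrays and 12.16 to 12.51 on the RAG2-/- arrays. On the RAG2-/- arrays this sum was mostly Ighm, which read 12.06 to 12.40 there and 12.96 to 13.42 on the wild type arrays. Ms4a1 read 10.15 to 11.05 on the wild type and 5.81 to 7.62 on the RAG2-/- arrays. Cd79b was not called in CD8α- cells. Igha and Pou2af1, an immunoglobulin gene and a B cell coactivator, were below 5 on all RAG2-/- arrays. They passed the filter only through wild type arrays, so this direction was built into their being tested. Jchain reached 5 on 4 wild type arrays and 1 RAG2-/- array. The part of the cell cycle and B cell lists in the sterol synthesis result was not tested in either population. Of the 15 member calls in CD8α- cells, 9 were left without RAG2-/- CD8α- replicate 1, 6 without wild type CD8α- replicate 1 and 9 without wild type CD8α- replicate 2. In CD8α+ cells 3 members, all among the 7, were called without wild type CD8α+ replicate 1. Without wild type CD8α+ replicate 2, 4 were called, 3 of them among the 7.

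Among the 4 regulators, by their brightest probe sets, Scap rose in both populations of RAG2-/- mice and Insig2 in CD8α+ cells, and Srebf1 and Srebf2 were called in neither. Scap, the escort of SREBP, read 10.25 and 10.26 in wild type CD8α- and 10.09 and 10.33 in wild type CD8α+ cells, and 11.45 and 11.08 in RAG2-/- CD8α- and 11.36 and 11.20 in RAG2-/- CD8α+ cells. The changes were 1.01 (SE 0.20, limma adjusted p = 0.0078) and 1.07 (SE 0.20, adjusted p = 0.00701).

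Srebf1, which encodes SREBP-1, read 8.35 and 8.22 in wild type CD8α-, 8.33 and 8.13 in wild type CD8α+, 8.40 and 8.47 in RAG2-/- CD8α- and 8.40 and 8.29 in RAG2-/- CD8α+ cells. Its genotype differences were 0.15 (95% interval -0.25 to 0.55) and 0.12 (-0.28 to 0.51). Srebf2, which encodes SREBP-2, read 7.33 and 7.94 in wild type CD8α-, 7.23 and 7.72 in wild type CD8α+, 7.03 and 7.30 in RAG2-/- CD8α- and 7.69 and 7.26 in RAG2-/- CD8α+ cells. It was not called by its brightest probe set, with differences of -0.47 (95% interval -1.16 to 0.21) and -0.00 (-0.69 to 0.68). Another Srebf2 probe set read 4.27 to 4.52 on the wild type arrays and 6.94 to 7.03 on the RAG2-/- arrays. It read the identical 6.9449 on both RAG2-/- CD8α- arrays and on RAG2-/- CD8α+ replicate 1. Against a level of 5 this was at least 3.85-fold and 3.96-fold higher (limma adjusted p = 0.000394 and 0.000341 over probe sets). Whether the shared value is a floor or a measured level was not tested, so these folds are not read as a rise. The probe set passed the filter only through RAG2-/- arrays, so this direction was built into its being tested. The 2 probe sets of Srebf2 thus gave different calls. Nr1h3, which encodes LXRα, was below the floor in all groups, with 2.34 and 2.33 in wild type CD8α-, 2.33 and 2.33 in wild type CD8α+, 2.24 and 2.24 in RAG2-/- CD8α- and 2.57 and 2.24 in RAG2-/- CD8α+ cells.

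Between the dendritic cell populations, Insig2 was higher in CD8α+ cells of both genotypes, as were Pmvk and Nsdhl. Insig2, the SREBP-independent relative of Insig1, read 8.64 and 8.67 in CD8α- and 9.93 and 9.92 in CD8α+ cells of wild type mice, and 9.21 and 8.93 in CD8α- and 10.47 and 10.49 in CD8α+ cells of RAG2-/- mice. The 2 populations did not overlap in either genotype. The changes were 1.27 (SE 0.17, limma adjusted p = 0.00261) and 1.41 (SE 0.17, adjusted p = 0.0016). Each of its 3 probe sets above the floor was called higher in CD8α+ cells, by 1.05 to 1.86 in wild type and 1.41 to 2.25 in RAG2-/- cells. Insig2 was also 0.55 higher in RAG2-/- than in wild type CD8α+ cells (SE 0.17, adjusted p = 0.0406), a call that was lost when any array of those groups was left out (0.103 to 0.116). In CD8α- cells the genotype difference of Insig2 was 0.42 (limma adjusted p = 0.0906). Its other probe sets gave 1.11 and -0.23 there (adjusted p = 0.0387 and 0.364 over probe sets), so they differed in direction.

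**Figure D4:**
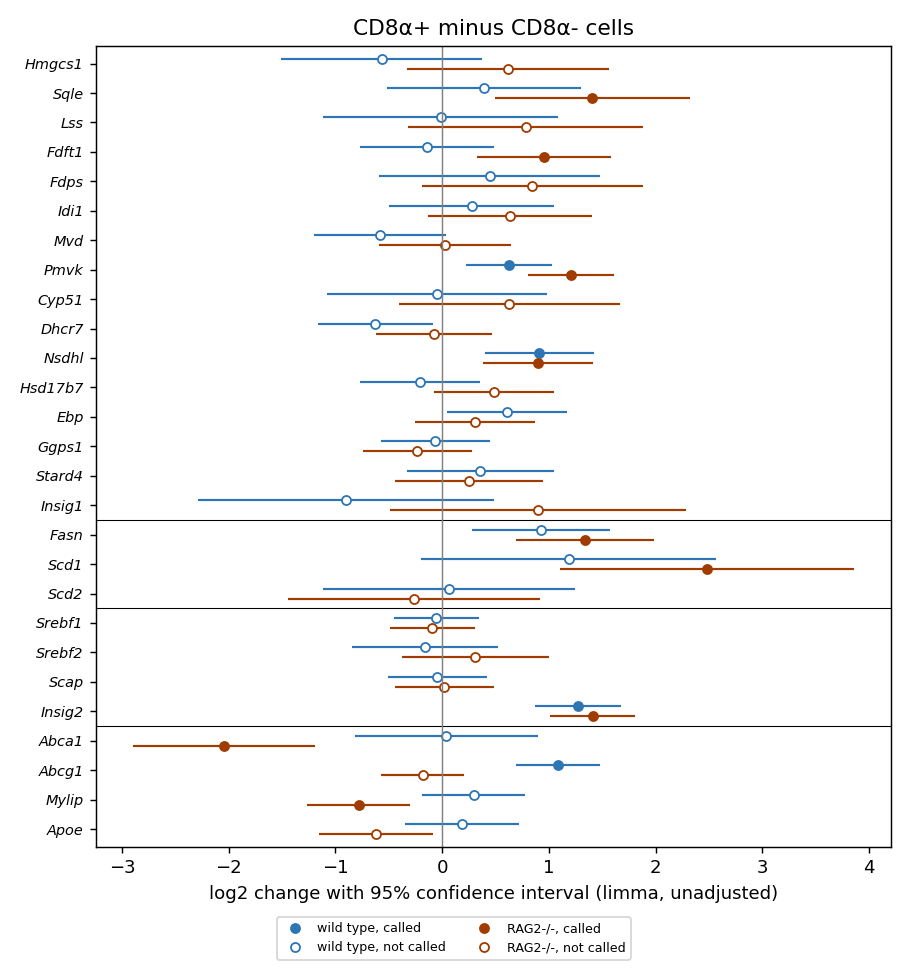
Log2 change of the 27 tested genes, CD8α+ minus CD8α- cells (x axis), with unadjusted 95% confidence intervals from limma, in wild type (blue) and RAG2-/- mice (brown); filled points passed an adjusted p of 0.05. Insig2, Pmvk and Nsdhl lie to the right in both genotypes, and Abca1 and Mylip lie to the left in RAG2-/- mice.

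Pmvk read 8.50 and 8.52 in CD8α- and 9.24 and 9.02 in CD8α+ cells of wild type mice (change 0.62, SE 0.17, limma adjusted p = 0.048). In RAG2-/- mice it read 7.85 and 7.94 in CD8α- and 9.19 and 9.02 in CD8α+ cells (change 1.21, SE 0.17, adjusted p = 0.00299). The wild type call was lost in 10 of 14 alternatives, among them each omission of an array (adjusted p = 0.0828 to 0.175), and the RAG2-/- call in 0 of 15. Nsdhl, a sterol C4 dehydrogenase, read 8.23 and 7.73 in CD8α- and 8.98 and 8.80 in CD8α+ cells of wild type mice (change 0.91, SE 0.22, adjusted p = 0.0285). In RAG2-/- mice it read 8.45 and 8.66 in CD8α- and 9.39 and 9.51 in CD8α+ cells (change 0.90, SE 0.22, adjusted p = 0.0262). The Nsdhl calls were lost without either CD8α+ array of the genotype, without wild type CD8α- replicate 2 (adjusted p = 0.0889 to 0.15 in wild type) and without RAG2-/- CD8α- replicate 1 (0.0817 to 0.112 in RAG2-/- mice).

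In wild type mice the fourth called member was Abcg1, 1.09 higher in CD8α+ cells (SE 0.17, limma adjusted p = 0.00469). The 4 calls of 27, all higher, are 14.8% of the tested members, where 17.1% of all genes were called (9.23% higher, 7.87% lower). Without wild type CD8α- replicate 2 or wild type CD8α+ replicate 1, 2 calls were left, and without wild type CD8α+ replicate 2, 3 members were called, 2 of them among the 4. The sterol synthesis arm had a median of -0.03 with 7 of 16 positive in wild type mice. That median was -0.21 without wild type CD8α+ replicate 1, and 0.22 with 11 of 16 positive without wild type CD8α+ replicate 2.

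In RAG2-/- mice 9 of 27 members were called between the populations, 7 higher and 2 lower in CD8α+ cells, where 21.8% of all genes were called (11.1% higher, 10.7% lower). Beside Insig2, Pmvk and Nsdhl, the higher genes were Sqle, Fdft1, Fasn and Scd1. Sqle, squalene epoxidase, read 6.92 and 7.55 in CD8α- and 8.17 and 9.12 in CD8α+ cells (change 1.41, SE 0.39, limma adjusted p = 0.0414). In wild type mice Sqle read 7.46 and 7.32 in CD8α- and 8.12 and 7.44 in CD8α+ cells. Fdft1 was 0.96 higher (SE 0.27, adjusted p = 0.0426), from the array values given above. Without RAG2-/- CD8α- replicate 1 or CD8α+ replicate 2 the Sqle change was 1.09 and 0.93 (adjusted p = 0.181 and 0.169), and Fdft1 missed the threshold there and without CD8α- replicate 2 (0.0749 to 0.164).

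Fasn, fatty acid synthase, read 9.46 and 9.52 in CD8α- and 10.43 and 11.23 in CD8α+ cells of RAG2-/- mice (change 1.34, SE 0.28, limma adjusted p = 0.0142), a call lost on leaving out CD8α- replicate 1 (1.31, adjusted p = 0.0663). In wild type mice it read 9.36 and 9.11 in CD8α- and 10.08 and 10.25 in CD8α+ cells, without overlap, but missed the threshold (change 0.93, 95% interval 0.28 to 1.58, adjusted p = 0.0613). Scd1, a desaturase of fatty acids and a known target of both programs, was faint: 2.27 and 3.25 in RAG2-/- CD8α-, 5.49 and 4.99 in RAG2-/- CD8α+, 4.92 and 4.92 in wild type CD8α- and 7.02 and 5.20 in wild type CD8α+ cells. In RAG2-/- mice it was at least 1.18-fold higher in CD8α+ cells (adjusted p = 0.0243), but only 3 CD8α+ arrays carried it past the filter, so that direction was built into its being tested. Between genotypes in CD8α- cells it was called lower (adjusted p = 0.0247), but both groups lay below 5, so no fold is given, and both Scd1 calls were lost with values below 5 set to 5. They were also lost without 3 of the 4 arrays of each comparison (adjusted p = 0.0724 to 0.126, and 0.106 to 0.115). Scd2, a related desaturase, read between 10.05 and 11.56 and was called in none of the comparisons.

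The 2 lower genes were LXR targets. Abca1 was 2.04 lower in CD8α+ than in CD8α- cells of RAG2-/- mice on the log2 scale, 4.12-fold (change -2.04, SE 0.36, limma adjusted p = 0.00799). Mylip differed by -0.78 (SE 0.20, adjusted p = 0.0351), which missed the threshold when any array was left out (0.0745 to 0.133). The median over the 4 LXR targets was -0.70 in RAG2-/- mice. In wild type mice it was 0.24, and 0.05 without CD8α- replicate 1 or 0.43 without CD8α- replicate 2. Of 10 macrophage markers tested, Adgre1 and C1qc were also called lower in CD8α+ cells of RAG2-/- mice, by log2 changes of -3.13 and -1.60. In wild type mice 2 of the 10 were called lower in CD8α+ cells and 0 higher, and Adgre1 differed by -4.27 there. The part of these markers in the LXR target differences was not tested. Without the 2 neutrophil-bearing arrays 7 members were called, 5 of them among the 9. Abca1 (-1.30, limma adjusted p = 0.08), Mylip (-0.92, 0.118), Nsdhl (1.06, 0.105) and Scd1 (2.72, 0.127) were no longer called, and Idi1 (1.36, 0.0234) and Hsd17b7 (0.97, 0.0448) became calls.

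The sterol synthesis genes shifted together between replicates. In RAG2-/- CD8α+ cells 14 of 16 genes were higher in replicate 2 than in replicate 1, with a median difference of 0.59, where the median over all genes was 0.05. Hmgcs1 read 11.16 and 12.39 there, Lss 7.73 and 8.98, Cyp51 8.22 and 9.58, and Fdps 5.29 and 6.65. In wild type CD8α+ cells 2 of 16 were higher in replicate 2, with a median difference of -0.31 against 0.02 over all genes, and in CD8α- cells the medians were -0.12 (wild type) and 0.30 (RAG2-/-, where 12 of 16 were higher in replicate 2). The median difference of the arm between CD8α+ and CD8α- cells of RAG2-/- mice, 0.63 with 14 of 16 positive and 0.02 over all genes, therefore rested on the array: it was 1.12 without RAG2-/- CD8α+ replicate 1 and 0.16 without RAG2-/- CD8α+ replicate 2. Without that last array 4 members were called between the populations, and 3 without RAG2-/- CD8α- replicate 1. RAG2-/- CD8α+ replicate 1 is 1 of the arrays with neutrophil transcripts; their part was not tested.

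**Figure D5:**
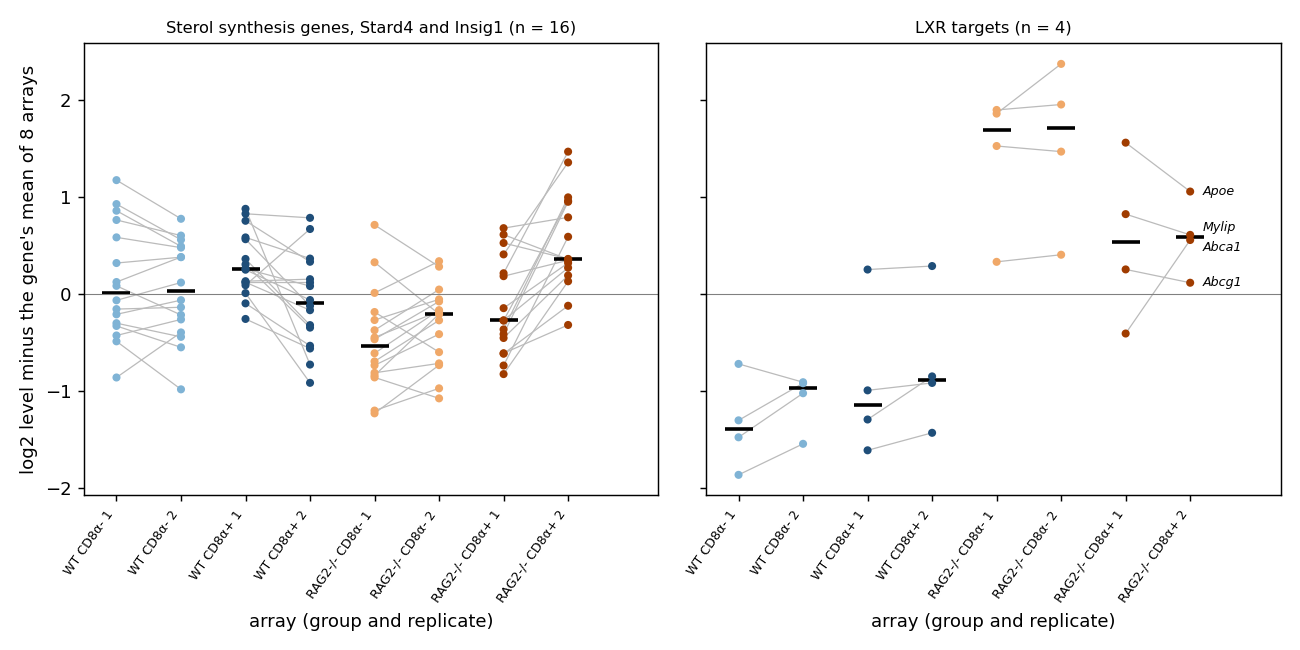
Log2 level of each gene minus its mean over the 8 arrays (y axis) for 16 sterol synthesis genes (left) and 4 LXR targets (right) on each array (x axis); grey lines join the same gene in the replicates of a group and black bars are medians. The sterol synthesis genes shift together between the replicates of RAG2-/- CD8α+ cells, where 14 of 16 are higher in replicate 2, while Apoe, Mylip and Abca1 separate the genotypes.

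Whether the genotype change differed between the populations was tested as an interaction, the genotype change of CD8α+ cells minus that of CD8α- cells, in which an offset shared by all arrays of a genotype cancels. Of all genes, 0.24% were called (0.0799% higher, 0.16% lower), and of the 27 members 0 were called by limma, with 6 at an unadjusted p below 0.05. Abcg1 had the lowest adjusted p, 0.15 (difference -1.27, SE 0.23). The other 5 were Abca1 (-2.08, adjusted p = 0.309), Mylip (-1.08, 0.395), Apoe (-0.80, 0.644), Fdft1 (1.10, 0.546) and Pmvk (0.59, 0.664). All 4 LXR targets had a negative difference, with a median of -1.17, and 12 of 16 sterol synthesis genes a positive one, with a median of 0.60, where the median over all genes was -0.02. The genotype comparisons in CD8α- and CD8α+ cells are therefore set side by side above and no member is shown to differ between them. The comparisons share arrays (each group enters a comparison of genotypes and one of populations), so their values are not independent of each other.

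Around the module, 26 of 36 further genes of sterol and fatty acid metabolism were tested, and 9, 12, 11 and 10 of them were called in the comparison of populations in wild type mice, of populations in RAG2-/- mice, of genotypes in CD8α- cells and of genotypes in CD8α+ cells. These are shares of 34.6%, 46.2%, 42.3% and 38.5%, where 17.1%, 21.8%, 40.5% and 36.9% of all genes were called, so the shares between genotypes lay near those of all genes. Without the neutrophil-bearing arrays the last 3 counts were 7, 7 and 6, of which 6, 6 and 5 were among the calls above. Npc1 and Npc2, which pass cholesterol out of lysosomes together, went in opposite directions in each of the 4 (limma adjusted p from 0.00114 to 0.0251). Without the neutrophil-bearing arrays Npc2 was still called in the last 3, and Npc1 in none of them (adjusted p = 0.0559 to 0.141). Npc1 read 8.94 and 8.37 in wild type CD8α-, 6.91 and 7.19 in wild type CD8α+, 7.51 and 7.40 in RAG2-/- CD8α- and 5.72 and 6.30 in RAG2-/- CD8α+ cells. Npc2 read 12.17 and 12.25, 13.41 and 13.48, 13.66 and 13.90, and 14.65 and 14.69 in the same order. Npc1 was thus lower, and Npc2 higher, in CD8α+ than in CD8α- cells and in RAG2-/- than in wild type mice.

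Lipid genes known as LXR targets outside the module moved unevenly. Lpl, lipoprotein lipase, read 5.74 and 6.44 in wild type CD8α-, 4.23 and 5.22 in wild type CD8α+, 9.61 and 8.80 in RAG2-/- CD8α- and 8.82 and 8.05 in RAG2-/- CD8α+ cells, a rise of 3.11 and 3.71 in RAG2-/- mice (limma adjusted p = 0.0031 and 0.00213). Lpcat3, a phospholipid acyltransferase, rose by 1.19 and 1.32 (adjusted p = 0.0196 and 0.0151). Pltp, a phospholipid transfer protein, was instead lower in CD8α+ than in CD8α- cells of wild type mice by a log2 change of -3.38 (adjusted p = 0.0232) and was not called between genotypes. The oxysterol enzyme Cyp27a1 was higher in RAG2-/- mice by 0.91 and 0.63, and the oxysterol-binding proteins Osbp and Osbpl8 changed by 1.15 and 1.11 and by -1.06 and -1.10. Osbpl8 also differed by -0.78 between the populations of RAG2-/- mice.

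In fatty acid synthesis, Acaca, acetyl-CoA carboxylase, fell by 1.33 and 1.40 in RAG2-/- CD8α- and CD8α+ cells (limma adjusted p = 0.00622 and 0.00605), and Acly, which makes cytosolic acetyl-CoA, fell by 0.78 in CD8α- cells (adjusted p = 0.0246). Elovl5, an elongase, rose by 1.02 there, and Acss2, which activates acetate, was 1.03 higher in RAG2-/- CD8α+ cells and 1.69 higher in CD8α+ than in CD8α- cells of RAG2-/- mice. The elongase Elovl6 was at least 2.63-fold higher in wild type and at least 2.49-fold higher in RAG2-/- CD8α+ cells than in CD8α- cells; it reached 5 on the 4 CD8α+ arrays alone, so this direction was built into its being tested. The desaturase Fads1 was higher in CD8α+ cells by 3.41 and 3.32 (limma adjusted p = 0.0131 in each). In CD8α- cells it read 5.16 and 4.82 in wild type and 4.42 and 6.13 in RAG2-/- mice. With 1 array of each of these groups below 5, the size of the changes is uncertain.

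The oxysterol genes that position dendritic cells in the spleen differed between the populations. Gpr183, the receptor for 7α,25-dihydroxycholesterol, read 10.71 and 11.39 in wild type CD8α- and 9.03 and 8.70 in wild type CD8α+ cells, and 11.33 and 11.16 in RAG2-/- CD8α- and 7.08 and 8.34 in RAG2-/- CD8α+ cells. The changes were -2.19 and -3.54 (limma adjusted p = 0.0123 and 0.00149). Hsd3b7, which breaks that ligand down, was higher in CD8α+ cells by 2.67 and 1.63 (adjusted p = 0.00119 and 0.00907) and was also 1.91 higher in RAG2-/- than in wild type CD8α- cells (adjusted p = 0.00361). Cyp7b1, which helps to make the ligand, was at least 1.78-fold and at least 1.46-fold higher in CD8α+ cells of wild type and RAG2-/- mice, and it too passed the filter only through CD8α+ arrays. Rxra, the partner of LXR on DNA, was higher in CD8α+ cells by 1.44 and 1.17, and Rxrb was 0.92 higher in RAG2-/- CD8α+ cells than in wild type. The ester hydrolase Nceh1 and the transporter Abca7 were lower in CD8α+ than in CD8α- cells of RAG2-/- mice by log2 changes of -1.51 and -1.24. Without the neutrophil-bearing arrays Cyp27a1, Rxrb, Lpcat3 and Acss2 were no longer called between genotypes in CD8α+ cells, Lpcat3, Osbpl8, Acly and Elovl5 in CD8α- cells, and Cyp7b1, Nceh1, Abca7, Acss2 and Osbpl8 between the populations of RAG2-/- mice (limma adjusted p = 0.0511 to 0.175). Pltp became a call between genotypes, -1.76 in CD8α- and 0.998 in CD8α+ cells (adjusted p = 0.0151 and 0.0455), and Sc5d, a sterol desaturase, one between the populations of RAG2-/- mice (1.48, adjusted p = 0.0399).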

How the data were processed

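Total RNA of sorted spleen dendritic cells was labelled with biotin and hybridised to 8 Affymetrix mouse arrays (4 groups of 2). The values used are the deposited log2 expression summaries per probe set; per the submitters' processing notes, GCRMA was used for both genotypes and affy for wild type arrays, with versions and the arrays normalized together not given in the sources used here. GCRMA corrects for probe sequence and normalizes arrays against each other, so values from separate runs can differ by run. No detection calls or scanner files were used, and the number of arrays limits the precision.

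Of 45101 probe sets, 34945 carried a single gene symbol in the platform annotation, 932 several, 9160 none and 64 were controls. Probe sets of at least log2 5 on at least 2 arrays were kept and the brightest stood for each gene, which left 8763 genes. A model of the 4 group means was fitted to this whole table with limma 3.58.1 (lmFit, eBayes, 4 residual degrees of freedom) in R 4.3.3, with 5 comparisons, and 2-sided p-values were adjusted by Benjamini-Hochberg over all genes tested. Fits of every probe set were adjusted over probe sets. Where a group was below 5 on both arrays, a lower bound of the fold was computed from 5. Values on every array are given for members called in at least 1 comparison and for the regulators and receptors, and called genes of the further pathway list are named; others are given by range and count. The members, the gene lists and the markers were chosen with earlier results of these data known. Promoters came from RefSeq (GRCm38.p6). On simulated data with 200 changed genes the fitting step was tested too. Replicate numbers did not pair the arrays (correlation of replicate differences between groups -0.146 to 0.112), so no pairing was used. Alternatives changed the scaling, the filter, the floor, the choice of probe set, the eBayes variant, the groups fitted and the replicate block, or left out arrays; the omission of both arrays with neutrophil transcripts was added after the data were seen. Figures used matplotlib 3.10.9 in Python 3.11.15.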

Additional observations from a re-analysis of the deposited data

How the results depend on the processing

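Of the 35 calls of a member in a comparison, repeated over 516 alternative fits, 386 were kept, 128 were lost with the same direction and 2 changed direction. Held in each alternative were Insig2 and Abcg1 between the populations of wild type mice, Insig2 and Pmvk between those of RAG2-/- mice, Apoe, Mylip and Scap between genotypes in both populations, and Abca1, Abcg1 and Fdft1 in CD8α- cells. Of the 70 differences not called, over 1081 fits, 1054 stayed uncalled, 23 became calls and 4 changed direction and were called.

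The count of members called between genotypes in CD8α+ cells was 15 with median-centred arrays, instead of 7, and 3 when only the compared groups were fitted. Between the populations of RAG2-/- mice it was 2, instead of 9, with no filter and 2 with only the compared groups, where 2 residual degrees of freedom remain. Leaving out 1 array at a time gave 2 to 3 calls between the wild type populations, 3 to 9 between the RAG2-/- populations, 6 to 11 between genotypes in CD8α- and 3 to 7 in CD8α+ cells, and 0 to 0 for the interaction; a lone array was assumed to vary like the other groups. With the replicate block the counts were 3, 6, 15, 5 and 0 in that order. The numbers share no more than a number, and the block is given for completeness.

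With median-centred arrays, Pmvk became 0.0398 (adjusted p = 0.862) between genotypes in CD8α- cells and 0.64 (0.0188) in CD8α+ cells, and Abcg1 became 0.59 (0.0212) in CD8α+ cells. With probe sets of a gene averaged, Srebf2 became 1.003 (0.00735) and 1.33 (0.00314) in CD8α- and CD8α+ cells, and Ggps1 became -0.0059 (0.982) in CD8α+ cells. The Srebf2 average includes the probe set with an identical value on several RAG2-/- arrays, so it is not read as a rise. Over all genes, median centring moved the share of calls that were higher in RAG2-/- cells from 57.7% to 90.5% in CD8α- and from 56.4% to 91.3% in CD8α+ cells, and quantile normalization moved it to 50.2% and 54.4%. Relative to the all-gene median, the sterol synthesis median in CD8α- cells was -0.66 as deposited, -0.66 after quantile normalization and -0.67 after centring, and the LXR target median 2.85, 2.93 and 2.84.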
